A study of Homo sapiens with 6 samples.

Results

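The 6 libraries of this series were compared by their replicate number. 8505C cells, an established line from an anaplastic thyroid cancer, were transfected with a control siRNA (siCtrl) or with an siRNA against NUF2 (siNUF2), and poly(A) RNA was sequenced at 24 h in 3 libraries of each. The labels give the genotype of the siCtrl cells as WT and of the siNUF2 cells as NUF2 knockdown. Both were kept in RPMI-1640 with serum, are a single cell line, and have no untransfected cells beside them. The labels number the libraries 1, 2 and 3 in each arm, and number 1, 2 or 3 therefore joins 2 libraries, 1 per siRNA, of the 6 in all. The question was which genes differed between the numbers in both arms, with the siRNA as a covariate. The sources used here do not say what libraries of 1 number share (a culture, a day or a sequencing run), so a number is called only that, and p-values measure only the spread between these libraries.

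Cultured tumour cells run several well-known inducible programs. Viral or self RNA in the cytosol is sensed by helicases such as RIG-I (DDX58) and MDA5 (IFIH1), which switch on interferon beta and lambda, and secreted interferon then induces a broad set of antiviral genes. NF-kB drives cytokine genes, HIF1 drives glycolysis and pH regulation under low oxygen, HSF1 drives chaperones, NRF2 drives antioxidant enzymes, and serum induces FOS and EGR1 within minutes. Each of these has well-known target genes, which were counted as lists.

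The libraries held between 61257859 and 69755291 counts on genes, and the number 3 libraries had the lowest total in both arms. Mitochondrial genes took between 5.46% and 7.06% of the counts and ribosomal protein genes between 6.98% and 8.39%. In both arms number 1 had the highest mitochondrial share and number 2 the highest ribosomal protein share, but an exact permutation of the numbers within arms cannot give a p below 0.167, which was the value of both. NUF2, a subunit of the kinetochore NDC80 complex and the siRNA target, was at 14.8, 14.5 and 12.2 FPKM (fragments per kilobase of transcript, scaled to library depth) in siCtrl 1, 2 and 3 and at 1.53, 2.05 and 1.56 in siNUF2 1, 2 and 3. NUF2 thus followed its labels in every library, and it did not pass the test among the numbers (edgeR, adjusted p = 0.34). The cells had high VIM (452 to 521 FPKM) and KRT7 (354 to 512) and the thyroid factor NKX2-1 (14.6 to 21.5), whereas the thyroid product TG was at 0 counts in the number 1 and 2 libraries and at 12 and 4 counts in siCtrl 3 and siNUF2 3. EPCAM stayed under 0.25 FPKM in all libraries.

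Transcripts of other cell types were unevenly spread over the numbers, and this bears on the genes that marked number 1. The lysozyme gene LYZ had 1039 counts in siCtrl 1 and 58 in siNUF2 1, and 0 in the libraries of numbers 2 and 3. The alpha globin genes HBA2 (738 and 384 counts) and HBA1 (612 and 280), which are near-identical copies between which counting can split reads, and the neutrophil gene S100A9 (369 and 50) were likewise at 0 in numbers 2 and 3. The beta globin gene HBB had 1303 and 431 counts in number 1 and at most 7 elsewhere, and the leukocyte antigen PTPRC had 389 and 106 against at most 14. Of 13 immune markers measured of 14 listed, 9 were highest in number 1 in both arms, and the sum of all 13 was 7.37 to 19.1 FPKM in number 1, 5.92 to 6.91 in number 2 and 8.1 to 8.97 in number 3. CD3E, CD8A, MS4A1 and LYZ were at 0 in both libraries of numbers 2 and 3. The 10 endothelial and red cell markers measured of 11 listed summed to 17.6 to 37.4 FPKM in number 1, 7.58 to 7.81 in number 2 and 5.18 to 6.28 in number 3. Of these 10, only the 3 globin genes were highest in number 1 in both arms, and 4 endothelial genes were lowest there.

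Connective tissue genes showed the opposite order. COL1A2, a chain of type I collagen, was at 0 counts in both number 1 libraries and at 550 to 928 in the others, and the fibrillar collagen gene COL3A1 had 40 and 184 counts in number 1 against 502 to 1086. Of 11 fibroblast markers 6 were lowest in number 1 in both arms, and their sum was 1.11 to 1.48 FPKM in number 1 against 4.98 to 7.84 in number 2 and 4.98 to 5.5 in number 3. The endothelial gene VWF, at 4 and 0 counts in number 1, had 113 to 228 in the rest. The part of other cell types in the results was not tested, and in bulk RNA fewer cells of a type and less RNA per cell cannot be told apart.

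**Figure D1:**
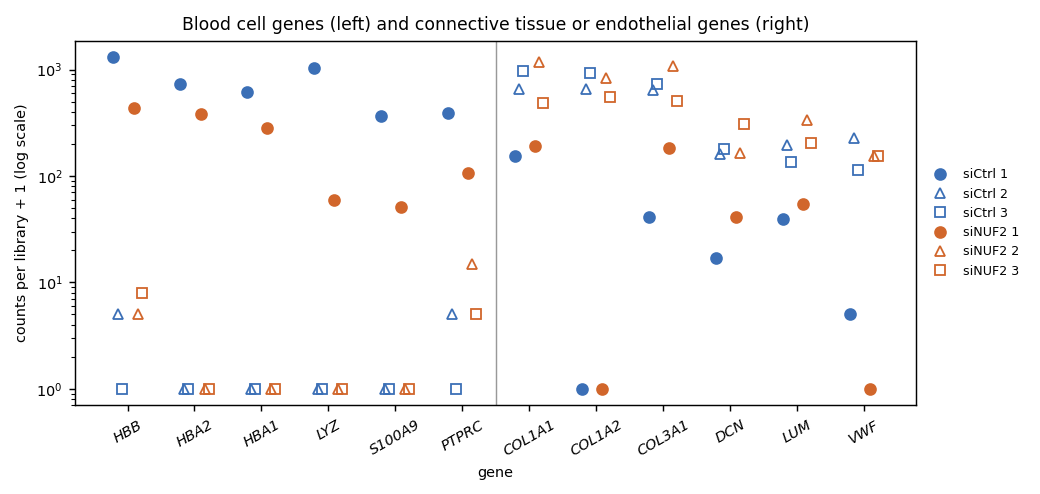
Counts plus 1 (log scale) of 6 blood cell genes and 6 connective tissue or endothelial genes in each library; colours mark the siRNA arm, and symbols the replicate number, filled for number 1. The filled symbols stand at 50 counts or more for the blood cell genes, where the open ones stand at 14 counts or fewer, and below the open ones for the other 6 genes.

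Genes that differed between the numbers were found in all 3 numbers and in both directions. Of 11725 genes with a mean of at least 1 FPKM, 891 differed among the 3 numbers (7.6%, edgeR's quasi-likelihood test, Benjamini-Hochberg adjusted p under 0.05), and 3177 had an unadjusted p under 0.05. In 888 of the 891 the number that stood apart lay beyond both other libraries of its arm in both arms, where 69.9% of all tested genes also had such a number. Number 2 stood apart most often, with 244 genes higher (2.08%) and 166 lower (1.42%), followed by number 3 with 203 higher (1.73%) and 93 lower (0.793%), and number 1 with 84 higher (0.716%) and 101 lower (0.861%). Of the 891 genes 239 differed by more than 2-fold from the mean of the other 2 numbers. Of the sum of squares of the log2 CPM (counts scaled to library size) over all genes, 51.9% went with the number (2 degrees of freedom), 25.9% with the siRNA (1) and 22.2% with neither (2). Per degree of freedom the number and the siRNA were at 2.34 and 2.33 times the rest.

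In pairs, 766 genes differed between numbers 3 and 2 (6.53%), of which 401 were higher in number 3 (3.42%) and 365 lower (3.11%). Between numbers 2 and 1, 484 genes differed (4.13%), with 275 higher in number 2 (2.35%) and 209 lower (1.78%). Between numbers 3 and 1, 272 genes differed (2.32%), with 170 higher in number 3 (1.45%) and 102 lower (0.87%). Every pair shares libraries with the other two. The count for number 2 against 1 fell from 484 to 98 without siNUF2 replicate 2. That for number 3 against 1 fell from 272 to 179 without siCtrl replicate 3 and to 162 without siNUF2 replicate 3, and rose to 594 and 520 without siCtrl and siNUF2 replicate 2. For number 3 against 2, 766 became 347 and 316 without siCtrl and siNUF2 replicate 3, 402 without siNUF2 replicate 2, and 1193 and 1187 without siCtrl and siNUF2 replicate 1. In these fits a number with a lone library was assumed to vary like the rest.

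The arms share no library, so a difference seen in siCtrl could be looked up in siNUF2. Of 435 genes that differed by at least 2-fold between siCtrl 3 and siCtrl 2, 351 (80.7%) had the same sign between siNUF2 3 and siNUF2 2, and 193 (44.4%) were again past 2-fold, which is 42% of the 459 genes past 2-fold in siNUF2. For numbers 2 and 1 the same sign held for 269 of 344 genes (78.2%), and for numbers 3 and 1 for 272 of 354 (76.8%). Over all 11725 genes, which share the 4 libraries of a pair and their depth, the sign was the same for 62.8% (2 against 1), 70.8% (3 against 1) and 65.6% (3 against 2), and Pearson's r of the log2 differences was 0.358, 0.468 and 0.385. With a single library per number and arm, whether a difference between numbers depended on the siRNA could not be tested. The relation of the differences to GC content had opposite signs in the arms (r of -0.097 in siCtrl and 0.095 in siNUF2 for 2 against 1, and 0.11 and -0.14 for 3 against 2).

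**Figure D2:**
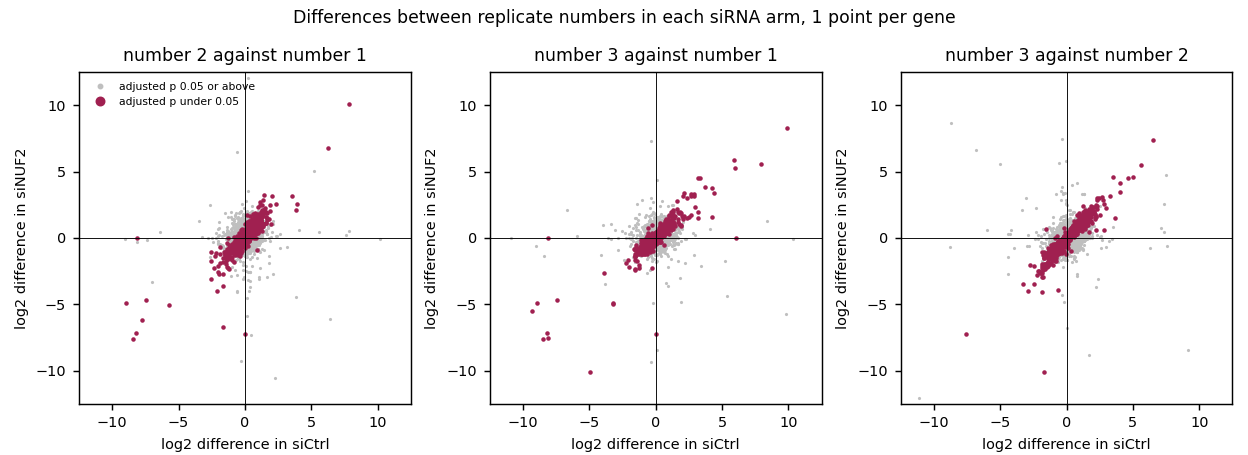
Log2 differences in CPM between replicate numbers in siCtrl (x axis) and in siNUF2 (y axis), 1 point per gene symbol among the 11725 genes and 1 panel per pair of numbers. A symbol shared by several genes is drawn once. Coloured points are genes with an edgeR adjusted p under 0.05 among the 3 numbers. Coloured points lie along the diagonal, with a few near an axis.

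Interferon genes set number 3 apart. OASL (ENSG00000135114, chromosome 12 from 121019111 to 121039242 in GRCh38), an antiviral gene of the oligoadenylate synthetase family, was at 0.201 and 0.363 FPKM in siCtrl 1 and 2 and at 12.2 in siCtrl 3, and at 0.242, 0.58 and 14.4 in siNUF2 1, 2 and 3. Both number 3 libraries were far above the other 4, which did not overlap with them. The log2 difference of number 3 from the mean of the others was 5.38 (standard error 0.15, edgeR adjusted p = 5.92e-05). CCL5 (chromosome 17 from 35871491 to 35880793), a T cell attracting chemokine, was at 22.9 and 21.3 FPKM in number 3 and at 0.341 to 0.537 in the other 4 libraries (log2 difference 5.64, standard error 0.19, adjusted p = 0.000122). ISG15, a ubiquitin-like protein, was at 77.9 and 99.8 FPKM in number 3 against 10.1 to 13.6 (log2 difference 2.90, standard error 0.14, adjusted p = 0.000481). IFI44, of the same response, was at 21.1 and 31.9 against 0.842 to 2.06, and CXCL11, a CXCR3 ligand, at 3.53 and 3.38 against 0 to 0.281.

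**Figure D3:**
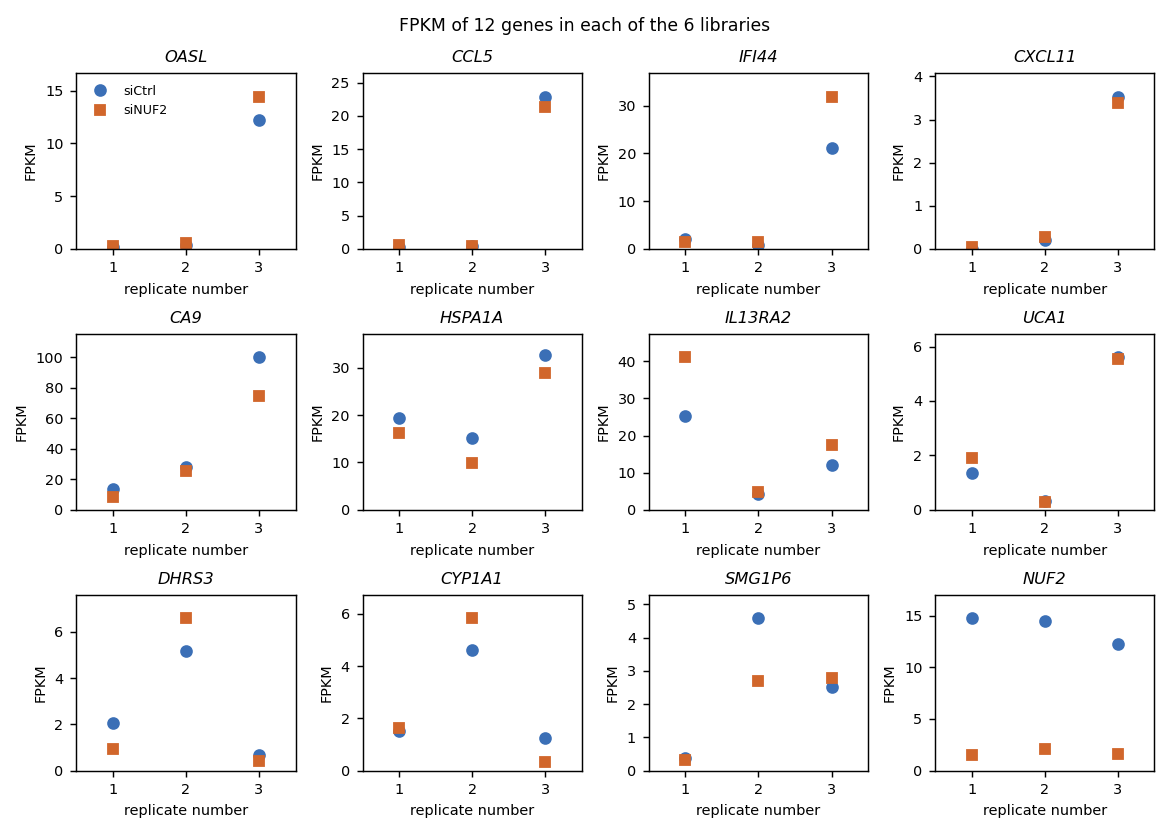
FPKM (y axis, from 0) of 12 genes in each library against the replicate number (x axis), with circles for siCtrl and squares for siNUF2. OASL, CCL5, IFI44, CXCL11, CA9 and HSPA1A are highest in number 3, DHRS3 and CYP1A1 in number 2, IL13RA2 and UCA1 are lowest in number 2, SMG1P6 is lowest in number 1, and NUF2 differs by siRNA.

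Of the 35 interferon genes tested of 44 listed, 18 differed among the numbers (51.4%, beside 7.6% of all genes), 16 of them with number 3 apart and higher. OASL and IFIH1 reached the filter only through number 3, and without them 16 of 33 differed (48.5%, beside 7.33% of all genes with such genes left out). CXCL11 and CCL5, which are not on the list, also reached it only through number 3. A difference was thus built into the selection of OASL, IFIH1, CXCL11 and CCL5, and their p-values are no more than a description. In pairs, 16 were higher in number 3 than in number 1 (beside 1.45% of all genes) and 16 higher than in number 2 (beside 3.42%), and none was lower in either pair. The median log2 difference of the 35 was 0.64 for number 3 against 1 and 0.60 against number 2 (medians of all genes -0.002 and -0.006), and 0.18 for number 2 against 1. In the arms the medians for 3 against 2 were 0.64 in siCtrl and 0.50 in siNUF2. The count was between 14 and 27 under the alternatives other than the fit without a filter, and 17 without either number 3 library. The remaining 2, IFITM3 and IFITM2, which block virus entry, were lower in number 1 (IFITM3 at 206 and 197 FPKM in number 1 and 244 to 296 elsewhere).

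By role, the ligands could be followed in counts. They were looked up after the other values were seen, as were IFIH1, the receptor and signalling genes, the effectors other than those above, the genes under the filter, and the factor genes given for the other lists. IFNB1 (interferon beta) had 134 counts in siCtrl 3 and 41 in siNUF2 3 and 0 in the other 4 libraries, and IFNL1 (interferon lambda) had 138 and 90 and again 0 in the others. Against a floor of 3 counts per library, IFNB1 was at least 48.9-fold higher in siCtrl 3 and at least 15-fold higher in siNUF2 3, and IFNL1 at least 50.4-fold and at least 33-fold higher. Both lay under the FPKM filter. In edgeR with filterByExpr their adjusted p was 0.0247 and 0.0149, whereas DESeq2 without a filter gave IFNL1 0.334 and IFNB1 no adjusted p. CXCL10 had 224 and 235 counts in number 3 and 0 to 33 in the rest (adjusted p = 0.0714 in edgeR with filterByExpr and 0.231 in DESeq2 without a filter). In number 3 the immune markers with the most counts were CD68 (1098 and 979) and CD14 (245 and 182). In the other libraries CD68 had 609 to 1181 counts and CD14 had 91 to 299. CD4 was lower in number 3, at 13 and 11 counts against 27 to 105. The part of other cell types in these values was not tested.

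The RNA sensors DDX58 and IFIH1 were higher in number 3. DDX58 was at 10.9 and 12.7 FPKM in number 3 against 2.65 to 3.4 (log2 difference 1.92, edgeR adjusted p = 0.000492), and IFIH1 at 3.06 and 3.02 against 0.438 to 1.06 (1.89, adjusted p = 0.0121). The receptor genes IFNAR1 (adjusted p = 0.587) and IFNAR2 (0.696) and the signalling genes JAK1 (0.767), STAT2 (0.777) and IRF9 (0.501) did not pass edgeR's test. IFNLR1, the receptor gene for interferon lambda, lay under the filter and was highest in number 3 in both arms, at 79 and 180 counts against 29 to 62. Among effectors named after their values were seen, IFIT2 was at 16.2 and 21.6 FPKM in number 3 against 0.939 to 2.54, IFIT3 at 45.3 and 47.1 against 5.24 to 11, IFIT1 at 8.93 and 14.1 against 1.38 to 2.74 and HERC5, the ligase for ISG15, at 7.38 and 7.64 against 1.95 to 2.28. B2M, the light chain of HLA class I, was at 143 and 142 FPKM in number 3 against 89.2 to 94.8, and HLA-C at 68.5 and 63.2 against 40.8 to 43.5. Of the 9 listed genes under the filter, which were not tested, OAS2 (610 and 741 counts in number 3 against 200 to 474), RSAD2 (206 and 382 against 5 to 190) and USP18 (118 and 88 against 8 to 113) were highest in number 3 in both arms. The other 6 were not, among them MX1 (363 and 416 counts against 45 to 439) and XAF1 (26 and 17 against 0 to 208). IFI44L, also of these 6, went the other way. It was highest in number 1 in both arms, at 683 and 630 counts against 154 to 356.

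Stretches of interferon gene promoters are shown because these genes moved together and many hold the element through which the response is known to act. This interferon-stimulated response element was searched as GAAA, any 2 bases and GAAA on both strands of the RefSeq promoter windows (GRCh38.p14, 250 bases before to 50 after a start site), where overlapping matches were kept. It was in 996 of all 27305 promoters (3.65%) and in 2.75% of those of tested genes that had one. Among the 203 genes with number 3 apart and higher, 148 had a promoter and 16 of these held it (10.8%), and in the other 5 classes 1.08% to 4.76% did. Of the interferon list, 10 of 14 genes called (71.4%) and 7 of 15 not called (46.7%) held it. The 203 genes include 16 of the 18 interferon genes called, so the 10.8% and the 71.4% count partly the same genes. Whether the class without the interferon list held the element more often than the other classes was not tested. A match describes letters and is not a measured site. Capitals mark the motif, and each line reads 5′ to 3′ on the strand given.
ISG15, chr1:1013382-1013407, + strand: gggaaaggGAAACCGAAActgaagcc
IFI44, chr1:78649763-78649788, - strand: agagaaagGAAACTGAAActcagtgt
DDX60, chr4:168318823-168318848, - strand: gctgaaggGAAACTGAAAcctaagtg
IFIT3, chr10:89327867-89327892, - strand: ggaaactgGAAAGTGAAActaattta
ISG20, chr15:88638939-88638964, + strand: acaaactaGAAACTGAAAcagggtcg
IFIT1, chr10:89392499-89392524, - strand: cgaaagggGAAAGTGAAActaaagct
IFIH1, chr2:162318688-162318713, - strand: agagaatcGAAACAGAAAccaaagtc
In IFI44, DDX60 and ISG20 the motif reads GAAACTGAAA, in IFIT3 and IFIT1 GAAAGTGAAA, and ISG15 and IFIH1 hold another pair of bases in the middle. These matches lie 13 (IFI44) to 117 (IFIT3) bases before the RefSeq start site.

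NF-kB target genes split number 3 from number 2. Of 18 tested of 24 listed, 10 differed among the numbers (55.6%, beside 7.6%). In pairs, 9 were higher in number 3 than in number 2 (beside 3.42% of all genes) and none lower. The median log2 difference of 3 against 2 was 0.76 (0.72 in siCtrl and 0.98 in siNUF2). IL6, an inflammatory cytokine, was at 27.2 and 18.7 FPKM in number 3 against 5.72 to 8.91 (log2 difference 1.70, standard error 0.15, edgeR adjusted p = 0.00312). SOD2, the mitochondrial superoxide dismutase, was at 9.87 and 11 against 3.96 to 5.23 (1.21, adjusted p = 0.00117). CXCL1, a neutrophil chemokine, stood apart in number 2, where it was lower, at 24.6 and 18.9 against 34.2 to 48.3 (-0.94, adjusted p = 0.0032). The factor genes RELA (adjusted p = 0.523) and NFKB1 (0.539) did not pass.

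Part of the hypoxia and glycolysis genes were higher in number 3. CA9, the carbonic anhydrase that HIF1 induces, was at 13.8, 27.9 and 100 FPKM in siCtrl 1, 2 and 3 and at 8.18, 25.3 and 74.4 in siNUF2 1, 2 and 3. It was lowest in number 1 and highest in number 3 in both arms, 2.35 above the mean of the others on the log2 scale (standard error 0.12, edgeR adjusted p = 0.000481). NDRG1, a stress-induced gene, was at 36.1 and 24.7 FPKM in number 3, against 18.2 and 18.3 in siCtrl and 12.6 and 12.8 in siNUF2 (0.98, adjusted p = 0.00114). Of 20 tested of 22 listed hypoxia genes 8 differed among the numbers (40.0%, beside 7.6%), and 8 were higher in number 3 than in number 1 (beside 1.45% of all genes) and 8 higher than in number 2 (beside 3.42%), with medians of 0.53 and 0.36. Of 17 tested of 18 glycolysis genes 5 differed (29.4%, beside 7.6%), all with number 3 higher, among them PGK1 (234 and 176 FPKM against 107 to 147) and LDHA (651 and 546 against 364 to 495). GAPDH, the most abundant, was at 1586, 1503 and 1544 FPKM in siCtrl 1, 2 and 3 and at 1334, 1430 and 1362 in siNUF2 1, 2 and 3, and did not pass (edgeR, adjusted p = 0.957). The glycolysis count fell from 5 to 2 without siCtrl replicate 3 and without siNUF2 replicate 3. Of the HIF subunits, EPAS1 was higher in number 3 (25.2 and 17.5 FPKM against 9.91 to 17.2, adjusted p = 0.00903), though siCtrl 1 and siNUF2 3 nearly coincided, and HIF1A did not pass (adjusted p = 0.628).

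Part of the chaperone and lysosomal genes were lower in number 2 than in number 3. Of 17 tested of 18 listed cytosolic heat shock genes 8 differed (47.1%, beside 7.6%), and 7 were higher in number 3 than in number 2 (beside 3.42%) and none lower, with a median of 0.37. HSPA1A, the inducible HSP70, was at 32.6 and 29 FPKM in number 3, at 19.3 and 16.2 in number 1 and at 15.1 and 9.78 in number 2 (log2 difference of number 3 from the others 1.07, edgeR adjusted p = 0.00351). HSPA1B, a near-identical copy with which it can share reads, was at 63.6 and 56 against 19.1 to 33.7. HSPA8, the constitutive form, was lowest in number 2, at 336 and 274 against 404 to 517 (-0.59, adjusted p = 0.00651). The count fell from 8 to 5 without siNUF2 replicate 2 and to 4 without siNUF2 replicate 3.

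In the endoplasmic reticulum, 5 of 20 chaperone genes tested of 21 differed (25.0%, beside 7.6%) and all 20 had a positive difference of number 3 against 2, with a median of 0.33. HSPA5 (BiP) was at 338 and 281 FPKM in number 3 against 174 to 242 (0.62, edgeR adjusted p = 0.0051). Without siCtrl replicate 3 or siNUF2 replicate 3 the count was 3, and 8 without siNUF2 replicate 1. Of 27 tested of 28 listed autophagy and lysosome genes 10 differed (37.0%, beside 7.6%), and 9 were higher in number 3 than in number 2 (beside 3.42%) and none lower. SQSTM1 (p62), the autophagy receptor, was at 51 and 36 FPKM in number 2 against 79.2 to 90.9 (-0.97, adjusted p = 0.00651), and the protease gene CTSL at 99.8 and 90.6 against 142 to 168 (-0.69, adjusted p = 0.00651). The lysosome count fell from 10 to 6 without siCtrl replicate 3 and without siNUF2 replicate 3.

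**Figure D4:**
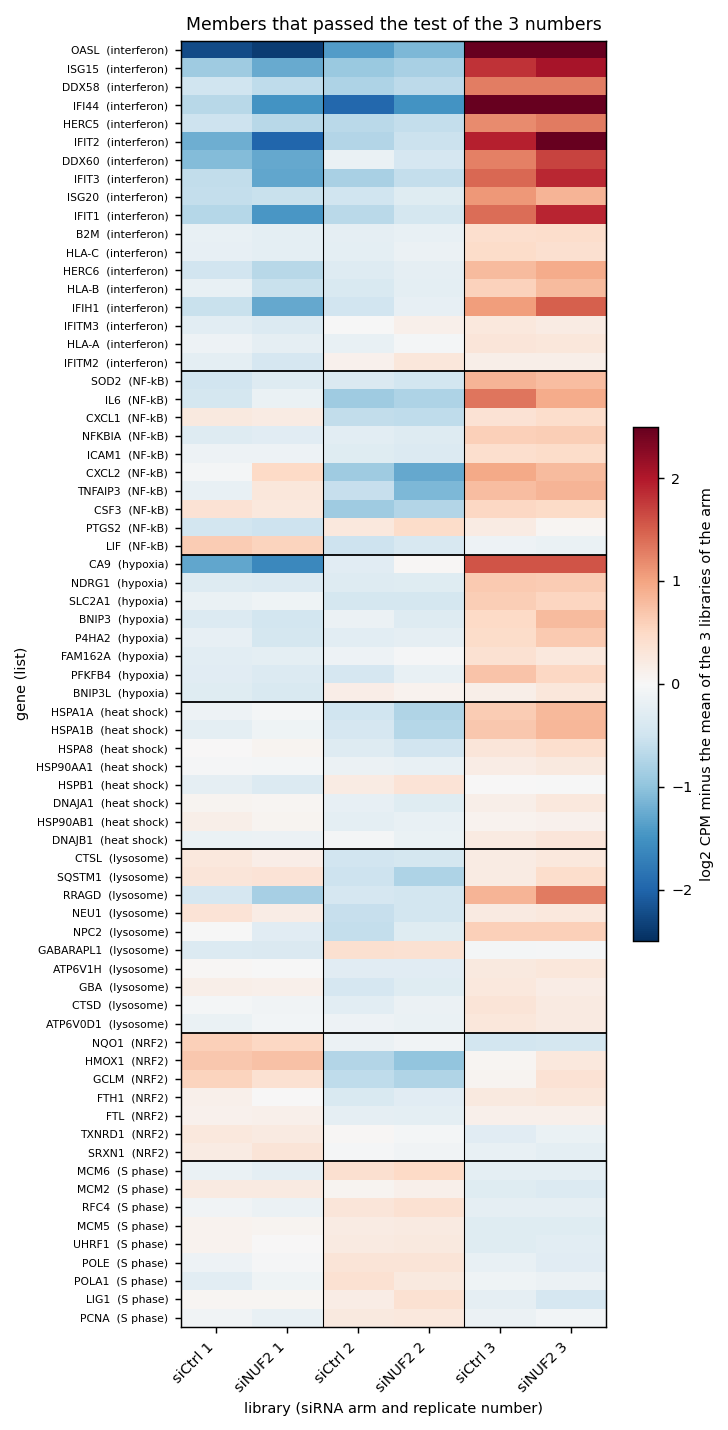
Log2 CPM minus the mean of the 3 libraries of the arm (colour) for members of 7 lists that passed the test among the numbers (rows, by list and p), in the 6 libraries ordered by number (columns). The 2 libraries of a number have like colours in most rows, with the deepest red for the interferon genes in number 3.

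NRF2 target genes that passed the test were higher in number 1 or lower in number 2. Of 20 tested of 24 listed genes 7 differed (35.0%, beside 7.6% of all genes), 3 with number 1 apart and higher and 4 with number 2 apart and lower. In pairs, 5 were lower in number 2 than in number 1 (beside 1.78% of all genes). Between numbers 3 and 1, 3 were lower in number 3 (beside 0.87%), and none was higher in either pair. NQO1, a quinone reductase, was at 68.1 and 52.6 FPKM in number 1, 41.1 and 34.2 in number 2 and 32.8 and 27.1 in number 3 (log2 difference of number 1 from the others 0.83, edgeR adjusted p = 0.00263). HMOX1, the haem oxygenase, was lowest in number 2, at 6.48 and 3.64 against 8.79 to 17.1 (-1.28, adjusted p = 0.00581). FTL, the ferritin light chain and the most abundant of the list, was also lowest in number 2, at 1051 FPKM in siCtrl and 468 in siNUF2 against 1332 and 1338 in siCtrl and 616 and 610 in siNUF2 (-0.36, edgeR adjusted p = 0.0283). The repressor gene KEAP1 was higher in number 1 (19.3 and 20.4 FPKM against 13.1 to 16, adjusted p = 0.0353), and NFE2L2, which encodes NRF2, did not pass (adjusted p = 0.162). The count of 7 fell to 4 without siNUF2 replicate 3.

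Mitochondrially encoded respiratory genes also marked number 1. All 4 of the 13 that passed (30.8%, beside 7.6%) were higher there, among them MT-ND4L, a complex I subunit, at 4596 and 4866 FPKM in number 1 against 1823 to 2665 (log2 difference 1.02, edgeR adjusted p = 0.00161). Of 78 nuclear-encoded respiratory genes 1 passed (1.28%). The mitochondrial count rose without siNUF2 replicate 1 and fell without each of the other libraries in turn.

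Immediate early and S phase genes also differed between the numbers. FOS, a subunit of AP-1, was at 47.1 and 45.7 FPKM in number 2, 26.1 and 16.4 in number 1 and 11.5 and 7.56 in number 3 (log2 difference of number 2 from the others 1.76, standard error 0.13, edgeR adjusted p = 0.00132), and FOSB, its relative, was at 7.73 and 7.05, 4.52 and 2.65, and 2.08 and 1.15. Of 22 tested of 25 listed immediate early genes 7 differed (31.8%, beside 7.6%), 3 of them with number 2 apart and higher. In pairs, 5 were higher in number 2 than in number 1 (beside 2.35% of all genes). Against number 1, 3 were higher (beside 1.45%) and 2 lower (beside 0.87%) in number 3. Against number 2, 4 were lower in number 3 (beside 3.11%). The median log2 difference of the list was 0.29 for 2 against 1, 0.34 for 3 against 1 and 0.11 for 3 against 2. Not all went one way, since the matrix protein gene CCN1 was lowest in number 1, at 221 and 332 FPKM against 310 to 356 in siCtrl and 444 to 518 in siNUF2. Of 38 S phase genes 9 differed (23.7%, beside 7.6%), of which 5 had number 2 higher and 4 number 3 lower. Against number 2, 11 were lower (beside 3.11% of all genes) and 1 higher (beside 3.42%) in number 3. The median of the list for 3 against 2 was -0.32 (-0.30 in siCtrl and -0.35 in siNUF2). The replicative helicase gene MCM6 was at 20.1 and 24.7 FPKM in number 2 against 12.8 to 14.9 (0.68, adjusted p = 0.00868). The S phase count of 9 rose to 14 without siCtrl replicate 1 and fell to 5 without siCtrl replicate 3, to 3 without siNUF2 replicate 2 and to 2 without siNUF2 replicate 3. Of 33 G2/M genes 1 differed (3.03%) and of 26 kinetochore genes 1 (3.85%), beside 7.6% of all genes, and whether these shares differ from that of the S phase list was not tested.

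Matrix and adhesion genes moved in both directions. Of 23 tested of 26 TGF-beta target and matrix genes 11 differed (47.8%, beside 7.6%), 6 with number 2 lower and 3 with number 2 higher. MMP2, a gelatinase, was at 2.43 and 2.52 FPKM in number 2, 6.2 and 7.32 in number 1 and 11.8 and 13.7 in number 3 (log2 difference of number 2 from the others -1.90, edgeR adjusted p = 0.000481). TGFBI, a secreted matrix protein gene, was at 152 and 170 FPKM in number 2 against 289 to 313 (-0.88, edgeR adjusted p = 0.00224). The count of 11 fell to 7 without siNUF2 replicate 2. Of 20 YAP and TEAD targets 9 differed (45%, beside 7.6%), and CCN2 was at 353 and 220 FPKM in number 3 against 201 and 244 in siCtrl and 104 and 138 in siNUF2 (0.78, adjusted p = 0.00335). Of 8 keratin genes tested 5 differed (62.5%, beside 7.6% of all genes), and fewer without siNUF2 replicate 2. KRT14 (79.7 and 78.6 in number 2 against 32.2 to 55.7, adjusted p = 0.00903) and KRT17 (24.1 and 17.6 in number 3 against 7.61 to 13.1, edgeR adjusted p = 0.00333) were apart in different numbers, while KRT7 (adjusted p = 0.727) and VIM (0.935) did not pass.

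The genes with the largest differences in each class were named whether or not they were on a list. In number 2 the higher genes were DHRS3, a retinal reductase (5.18 and 6.59 FPKM against 0.397 to 2.03), ADIRF, an adipogenesis factor (4.01 and 7.02 against 0.687 to 1.47), CYP1A1, the aryl hydrocarbon receptor target (4.63 and 5.84 against 0.335 to 1.63), and PPL, a desmosomal plakin (1.56 and 2.83 against 0.368 to 0.703). Their log2 differences were 2.83, 2.34, 2.31 and 2.21, with edgeR adjusted p of 0.0052, 0.0255, 0.0292 and 0.0136. PPL reached the filter on mean FPKM only through number 2, so that a difference was built into its selection. ADIRF, CYP1A1 and PPL lost their call without siNUF2 replicate 2 (adjusted p = 0.132, 0.104 and 0.053), and CYP1A1 also without siCtrl replicate 2 (0.0555). The lower genes in number 2 were IL13RA2, the decoy receptor of interleukin 13 (4.23 and 4.71 FPKM against 12.1 to 41.2, log2 difference -2.27, adjusted p = 0.000594), the long noncoding RNA UCA1 (0.328 and 0.298 against 1.33 to 5.61, -3.22, adjusted p = 0.000492), and the unnamed long noncoding RNAs AC093791 (0.439 and 0.335 against 1.42 to 8.55) and AC108174 (0 counts in both number 2 libraries and 7 to 307 in the others).

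In number 1 the 4 largest rises were the blood cell genes HBA2, LYZ, HBA1 and S100A9 given above, and against a floor of 3 counts HBA2 was at least 224-fold higher in siCtrl 1 and at least 116-fold higher in siNUF2 1. LYZ was at least 315-fold and at least 17.6-fold higher. These 4 reached the filter on mean FPKM only through number 1, so that a difference was built into their selection, and their p-values are no more than a description. In DESeq2 they did not pass (adjusted p = 0.206 to 0.299), while edgeR gave 0.00117 to 0.00374. The lower genes were COL3A1 (log2 difference -2.95, edgeR adjusted p = 0.0365, lost without siCtrl replicate 2 at 0.0713 or siNUF2 replicate 2 at 0.0991) and 3 genes that overlap others. SMG1P6, a pseudogene of the decay kinase gene SMG1, was at 0.383 and 0.304 FPKM in number 1 against 2.51 to 4.59, and AC020978 at 0.461 and 0.152 against 1.42 to 8.95. BOLA2, which SMG1P6 overlaps, had 0 counts in siCtrl 1 and 2388 to 2723 in the other 5 libraries (edgeR adjusted p = 0.675). ESRP2, which AC020978 overlaps, was higher in number 3, at 1.97 and 1.84 FPKM against 0.501 to 0.669 (edgeR adjusted p = 0.00651). ESRP2 reached the filter only through number 3, so that a difference was built into its selection too. AC004922 had 1 and 0 counts in number 1 and 218 to 2690 in the others, whereas the genes it overlaps, PDAP1 (adjusted p = 0.663) and ARPC1B (0.116), did not pass. Overlapping genes were looked up after the values were seen. Since the counting of overlapping models and copies is not given in the sources used here, the values of these genes are uncertain.

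In number 3 the lower genes were of the same kind. ARPIN-AP3S2, a model that runs through 2 genes, had 592 and 406 counts in siCtrl 1 and 2, 374 and 300 in siNUF2 1 and 2, and 0 in both number 3 libraries, at least 124-fold and at least 88.9-fold lower against the floor. The genes it spans did not pass, with AP3S2 at 2.99 to 3.73 FPKM (edgeR adjusted p = 0.808) and ARPIN at 1.72 to 2.78 (0.231). Z83844 had 0 counts in number 3 and between 18 and 2220 in the other 4 libraries, and 2220 came from siNUF2 1. AL445685 had 17, 5 and 0 counts in siCtrl 1, 2 and 3 and 920, 238 and 26 in siNUF2 1, 2 and 3. It also differed by siRNA (log2 difference 5.79, edgeR adjusted p = 0.00034). In siCtrl its counts were near the floor, and number 3 was only at least 1.52-fold lower. ANXA10, an annexin, was at 0.262 and 0.0446 FPKM in number 3 against 0.421 to 2.58 (log2 difference -3.03). Its edgeR adjusted p was 0.0358 among the 3 numbers and 0.0508 for number 3 against the mean of the others. Only its number 1 libraries, at 2.58 and 1.88, lay above 1 FPKM. A difference was thus built into its selection.

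Other genes with small p in the test, named after their values were seen, were abundant and did not overlap between the number apart and the rest. FGG, the fibrinogen gamma chain, was at 8.9 and 8.49 FPKM in number 3 against 25.8 to 35.7, and SFRP1, a secreted Wnt antagonist, at 17.8 and 19.4 against 51.6 to 108 (edgeR adjusted p = 0.000481 for both). The growth factor gene FGF2 was at 18.2 and 19.8 in number 3 against 6.02 to 8.39 (adjusted p = 0.000492). CAVIN2, a caveolar coat protein, was at 54.4 and 49.4 in number 2 against 17.1 to 25.5 (adjusted p = 0.000492). IL7R, the interleukin 7 receptor, was at 2.71 and 3.95 in number 2, 7.32 and 11.4 in number 1 and 13.5 and 17.8 in number 3 (adjusted p = 0.000481).

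Several large classes had fewer genes past the test than the 7.6% of all genes. Of the cytosolic ribosomal proteins 1 of 82 passed (1.22%), of the mitochondrial ribosomal proteins 0 of 78, of the proteasome subunits 1 of 46 (2.17%), of the translation factors 1 of 34 (2.94%), and of ribosome biogenesis and splicing genes 0 of 30 each in edgeR. The small differences of the cytosolic ribosomal protein genes still leaned one way within a pair. Of these 82 genes 76 had a positive difference of number 2 against 1, with a median of 0.12 (0.04 in siCtrl and 0.19 in siNUF2). A positive difference of 3 against 2 was seen in 6, with a median of -0.18 (-0.11 in siCtrl and -0.26 in siNUF2). Other classes did not all lean, as 17 of 34 translation factors had a positive difference of 2 against 1. Under the alternatives other than the fit without a filter the counts reached 15 for cytosolic ribosomal proteins, 9 for the proteasome, 8 for translation factors, 6 for mitochondrial ribosomal proteins and 5 for ribosome biogenesis and for splicing genes. Without siCtrl replicate 2 alone the count of translation factors was 5 and that of cytosolic ribosomal proteins 9, so the low shares held only in part of the fits. Of 17 magnesium transporter genes 1 differed (5.88%), CNNM2, at 1.12 and 0.871 FPKM in number 1 against 1.46 to 1.77 (edgeR adjusted p = 0.0339), a share near the 7.6% of all genes. The count was 0 without siCtrl replicate 3 and without siNUF2 replicate 3, 3 without siCtrl replicate 1, 2 without siCtrl replicate 2, and 0 in limma.

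**Figure D5:**
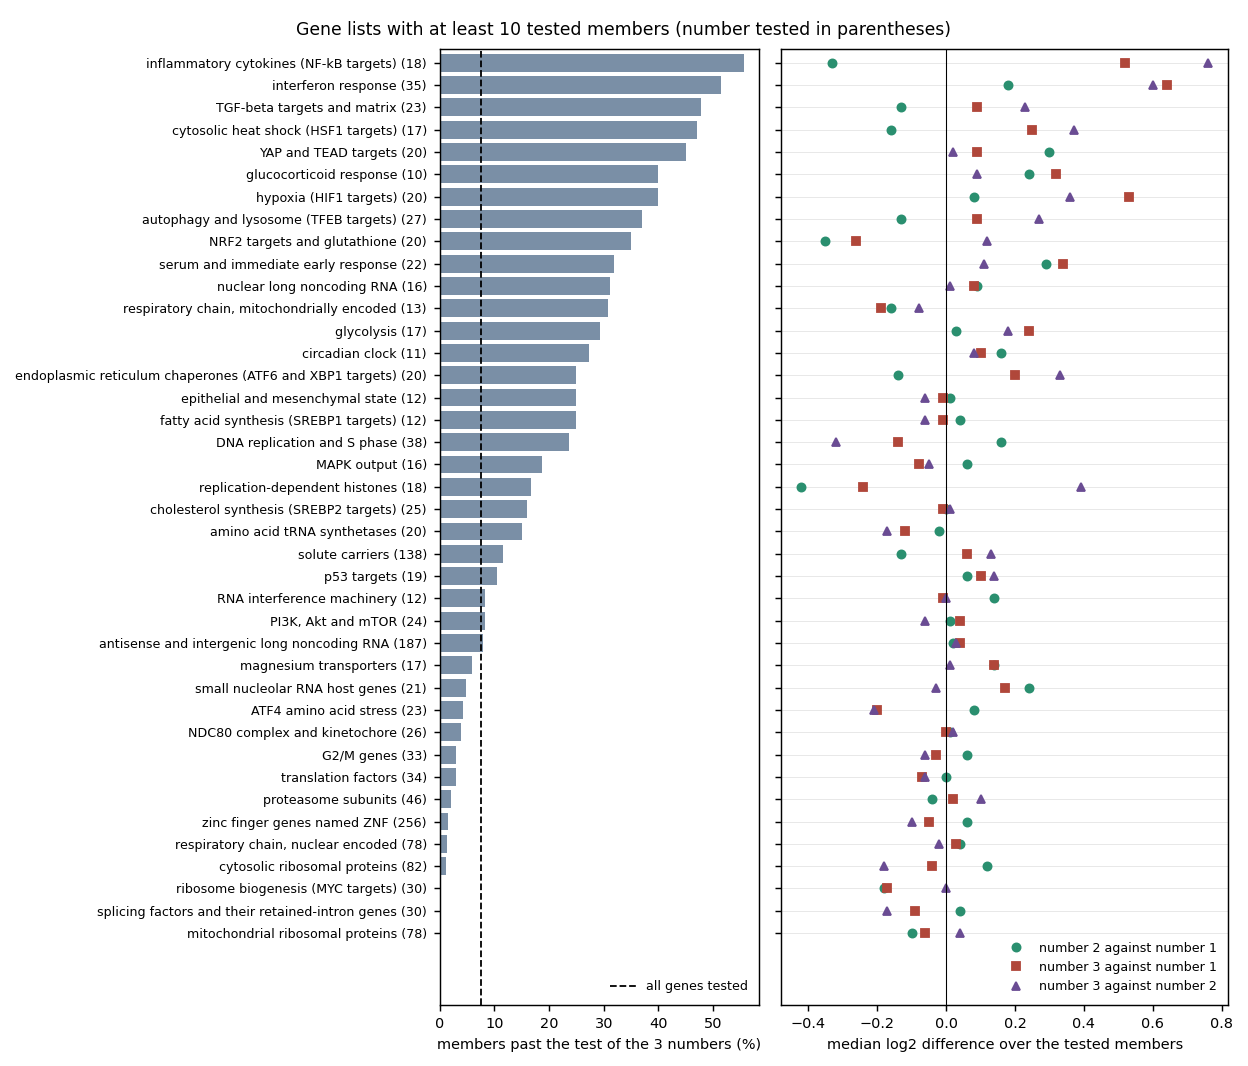
Left, the share of tested members past the test among the 3 numbers (%) for lists with at least 10 tested members, with a dashed line at the 7.6% of all genes; right, the median log2 difference of those members for each pair of numbers. The NF-kB and interferon lists lead with 55.6% and 51.4%, and the ribosomal protein, splicing and nuclear-encoded respiratory lists lie under the line.

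The numbers and the siRNA touched partly the same genes. With the number in the model 1705 genes differed between siNUF2 and siCtrl (14.5%, edgeR adjusted p under 0.05). Of the 891 number genes 231 were among them, which is 25.9% of the number genes and 13.5% of the siRNA genes. The siRNA count was 1036 without siCtrl replicate 3 and 953 without siNUF2 replicate 3.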

How the data were processed

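Poly(A) RNA of 6 libraries (3 siCtrl, 3 siNUF2) was sequenced as paired reads. The authors deposited 1 table with read counts per gene and FPKM per gene for each library. The submitters' processing notes name fastp, HISAT2 and StringTie and the build GRCh38 (hg38), and their versions, the annotation, the counter and its strand setting are not given in the sources used here. The deposited counts were not normalized, and the deposited FPKM values (scaled to gene length and library depth) were used for levels and for the filter.

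Genes with a mean of at least 1 FPKM were fitted with edgeR 4.0.16 (R 4.3.3, TMM, quasi-likelihood) with terms for siRNA and replicate number, and p-values were adjusted over all 11725 by Benjamini-Hochberg. The number apart is the one outside the closest pair of fitted number means. Unless a contrast or another setting is named, the adjusted p of a gene is from the test of the 3 numbers together. Alternatives used DESeq2 1.42.0, limma 3.58.1 on log2 FPKM, other filters and scalings, offsets for GC content and length, and each library left out. In simulated data with 11725 genes, the test of the 3 numbers recovered 42 of 42 genes changed 2-fold and 43 of 43 changed 4-fold, with 2 false calls. The simulation gave every gene the same spread and no siRNA effect, unlike the real data. These counts are therefore not error rates of the real fit.

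Named were NUF2, the 4 genes of each class (a number apart, higher or lower) with the largest difference, and for each list the 3 members with the smallest p and the most abundant. Other genes are said to be chosen after their values were seen, and these also include the overlapping genes, receptors, factors and marker genes looked up. The grouping and the 46 lists were chosen with earlier results of these data known. The numbers pair the libraries: deviations from the arm means correlated at 0.419, 0.344 and 0.446 for numbers 1, 2 and 3 across the arms. Unlike numbers were at -0.263 to -0.141. These negative values follow from the positive ones, since the 3 deviations of an arm cancel out. Depth was 61257859 to 69755291 counts, and floors and folds cover counting error only.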

Additional observations from a re-analysis of the deposited data

Results flagged for a closer look

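The median of the circadian clock list had opposite signs in the arms between numbers 3 and 2, while 1 of its genes was called higher and 1 lower in number 3. PER3, BHLHE40, RORA and NFIL3, the members named by the rule, had the same sign in both arms. PER3 reached the filter on mean FPKM only through number 2. The median log2 difference of the 11 tested of 19 listed genes was -0.17 in siCtrl and 0.34 in siNUF2, and the difference between the arms was not tested, since each number has 1 library per arm.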

How the results depend on the processing

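With no filter on low values, edgeR called 0 genes among the 3 numbers, in each pair of numbers and between the siRNAs, while 3676, 3305 (2 against 1), 2920 (3 against 1), 3464 (3 against 2) and 3894 (siRNA) had an unadjusted p under 0.05. DESeq2 called 2128 among the numbers and 1293, 849 and 1428 in the pairs, and without a filter (chosen after seeing the data) 2313, 1344, 951 and 1612. DESeq2 shared 881 of the 891 genes. limma on log2(FPKM + 0.1) called 309 for 2 against 1. Without the replicate block the siRNA called 468 genes in place of 1705. Leaving out each library in turn gave 606 to 1288 genes among the numbers, 98 to 599 for 2 against 1, 162 to 594 for 3 against 1, 316 to 1193 for 3 against 2 and 953 to 1762 for the siRNA, and the cause was not tested. Of 363 refits of the 24 named genes, 315 kept direction and call, 48 lost the call (24 of them with no filter) and 0 reversed. Other losses were LYZ, S100A9, Z83844 and AL445685 in limma, PPL in limma on log2(FPKM + 0.1), and COL3A1 (adjusted p = 0.0571) and ANXA10 (0.0575) in edgeR with filterByExpr, which was chosen after seeing the data. With 2 residual degrees of freedom and 1 library per number and arm, differences between arms could not be tested.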
